A study of Mus musculus with 20 samples.

Results

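The old mouse intervertebral disc was compared between its core and its outer ring in animals that received no active compound. The comparison used the 10 vehicle libraries among the 20 of the series, namely those whose column name in the deposited expression table carries the vehicle code: 5 of nucleus pulposus (NP) and 5 of annulus fibrosus (AF). Both groups came from BL6 mice killed at 24 months of age, with no mutant allele or transgene named in the labels. Both had received weekly intraperitoneal DMSO from 18 months of age for 6 months, so the solvent is common to both groups and no undosed disc was included. The other 10 libraries came from mice given MDL-800 in DMSO and entered only the scaling factors, the low-value filter and a single alternative fit. The labels call the material cells, whereas the protocol in the same labels describes NP and AF tissue taken out under a microscope and placed directly in a stabilising solution. Nothing in the labels says that each library is a separate animal or that tissue was pooled, nor at which spinal level the discs lay. The p-values below therefore measure the spread between these libraries. Libraries keep the numbers of their sample titles: 1, 2, 3, 5 and 6 for NP and 8, 9, 10, 12 and 13 for AF, and values given for a tissue follow that order.

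The NP is the gel-like centre of the disc. Its cells descend from the notochord, a rod of the embryo marked by the transcription factor brachyury, and in mice they keep vacuoles, keratin filaments and a matrix rich in aggrecan, a proteoglycan whose sulfated sugar chains hold water. The AF derives from the sclerotome of the somites and consists of lamellae of type I collagen with many features of tendon and, towards the inside, of cartilage. The adult disc core has no vessels, so its cells live at low oxygen and rely on glycolysis, and the ring borders on ligament, muscle, nerve, vertebral bone and marrow.

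RNA was measured as FPKM (fragments counted on a gene, relative to its length and to all fragments of the library) from ribosome-depleted stranded libraries. Values below are FPKM divided by a scaling factor of the library, called scaled FPKM, and a log2 difference is the NP mean minus the AF mean of log2(scaled FPKM + 1), which understates the change of low genes. Estimated depth was 15600000 to 22100000 reads in NP and 18800000 to 21100000 in AF, read from the spacing of low values. At 1 FPKM or more, 13801 ± 219 genes were detected in NP and 15313 ± 338 in AF (SD, n = 5 each), and the lowest AF library, with 14797, stood above the highest NP library, with 14185. The exact two-sided permutation p was 0.0079, the smallest that 5 against 5 unpaired libraries allow. NP and AF column names share numbers that the labels do not explain, so a pairing of libraries is not known. Across genes, NP libraries correlated with each other at 0.943 to 0.969, AF libraries at 0.905 to 0.959, and NP with AF libraries at 0.726 to 0.886; these are descriptions of the libraries across genes, which are no replicates.

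The labels were first checked against defining markers of each compartment. Brachyury (T, chr17:8434423-8442496), the notochord factor, stood at 1193, 1203, 1254, 1701 and 1641 scaled FPKM in NP libraries and at 212, 624, 361, 209 and 113 in AF libraries. Every AF library thus lay below every NP library, but none was near 0. Car12, in the planned set of NP markers, ran the other way, as given below. It was left out of the set that follows, to which Car3 and Cdh2 were added. Relative to the NP mean, the 7 markers T, Krt8, Krt18, Krt19, Cd24a, Car3 and Cdh2 had a median level of 15.5% in AF library 8, 53.6% in library 9, 25.1% in library 10, 16.2% in library 12 and 9.68% in library 13. AF library 9 was highest and AF library 13 lowest for each of these markers except Krt18, whose lowest value was in library 10. The reverse was smaller. The AF markers read in NP libraries were Tnmd, Mkx, Scx, Col1a1, Thbs4, Comp and Dcn. Their medians relative to the AF mean were 0.802%, 3.30%, 1.60%, 0.357% and 6.17% in NP libraries 1, 2, 3, 5 and 6. Their highest values there, 32.5% to 78.0%, belonged to the transcription factor Scx. Comp and Dcn had been added to the planned AF set. Without them the median marker in each NP library was Col1a1, at 3.50%, 7.21%, 3.97%, 3.45% and 6.24% in the same order. Among the 7 NP markers, Cd24a had the highest level in every AF library, from 20.1% in library 13 to 69.1% in library 9. Whether NP tissue was carried into the AF samples, or AF cells or surrounding cells in them hold these transcripts, cannot be told apart in these libraries.

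The size of the differences was asymmetric in the same way. Among 1474 protein-coding genes called higher in NP with an NP mean of at least 20 scaled FPKM, the lowest AF level was 14.5% of the NP level and 0 genes had an AF level under 10%. Among 1701 protein-coding genes called lower in NP with an AF mean of at least 20, 369 had an NP level under 10% of the AF level, and the lowest was 0.374%. T, Krt8, Krt18 and Car3 all had a log2 difference of 2.42.

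**Figure D1:**
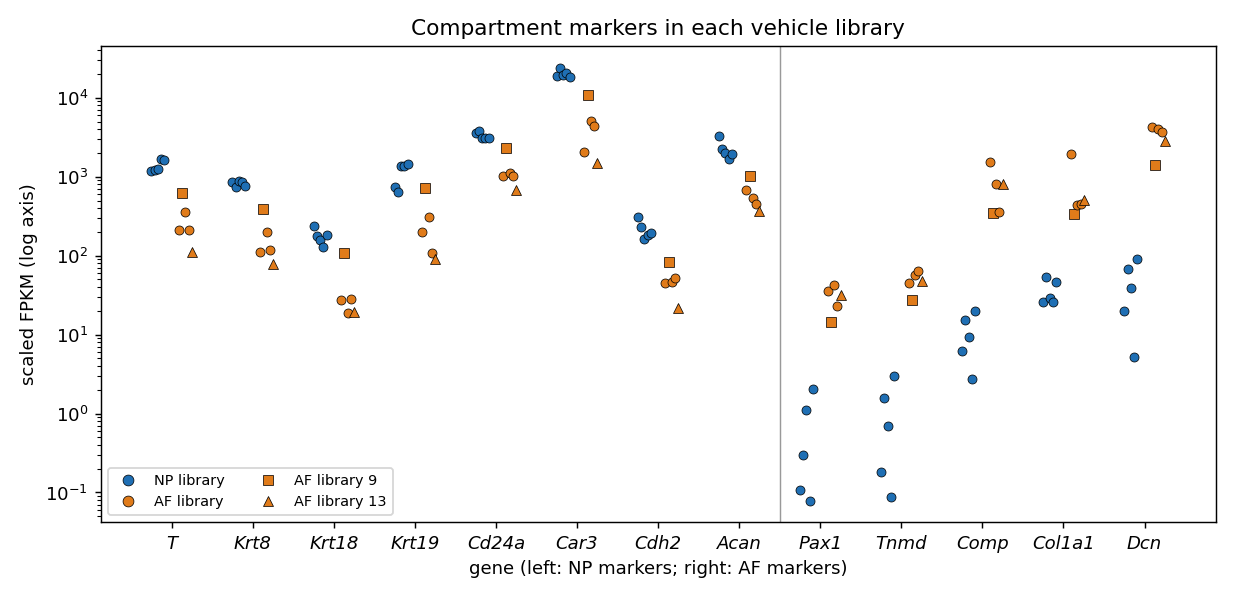
Scaled FPKM on a log axis of compartment markers in each vehicle library, with 1 point per library, NP in blue and AF in orange, and AF libraries 9 and 13 drawn as a square and a triangle. T is at 1193 to 1701 in NP libraries and at 113 to 624 in AF, while Dcn is at 5.22 to 91.8 in NP versus 1392 to 4215 in AF; the square is the highest AF point for the NP markers shown.

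With limma, 3577 of 16383 genes tested (21.8%) were higher in NP and 5550 (33.9%) were lower at a Benjamini-Hochberg adjusted p under 0.05, so that 55.7% were called in either direction. These shares are the background for every count of list members below. The ranges of the 5 NP and the 5 AF libraries were apart for 2473 genes (15.1%) in favour of NP and for 4246 (25.9%) in favour of AF. A log2 difference of at least 2 in either direction, on log2(scaled FPKM + 1), is called 4-fold here. Of the called genes, 141 (0.861% of those tested) were higher in NP by at least 4-fold and 1452 (8.86%) were lower by at least 4-fold. Without AF library 9 the first of these counts rose to 200, and without AF library 13 it fell to 80, whereas the second stayed between 1365 and 1563 over all 10 omissions. The median log2 difference over all genes tested was -0.08. Quantile normalization, which forces all libraries to a single distribution, moved that median to 0.20 and the split of calls from 39.2% to 62.3% higher in NP; the direction of the balance therefore depends on the scaling, and lists whose median changes sign with it are named.

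The genes were read in 46 lists covering identity, matrix, metabolism, signalling, stress and surrounding cells. Of 990 listed genes, 935 passed the filter on low values. For the list counts that follow, a gene that passed the filter through the tissue where it is high had to differ, so the counts describe the lists and test nothing about them. With limma, 16 lists had 0 members higher in NP, and these 16 also had 0 at an unadjusted p under 0.05.

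**Figure D2:**
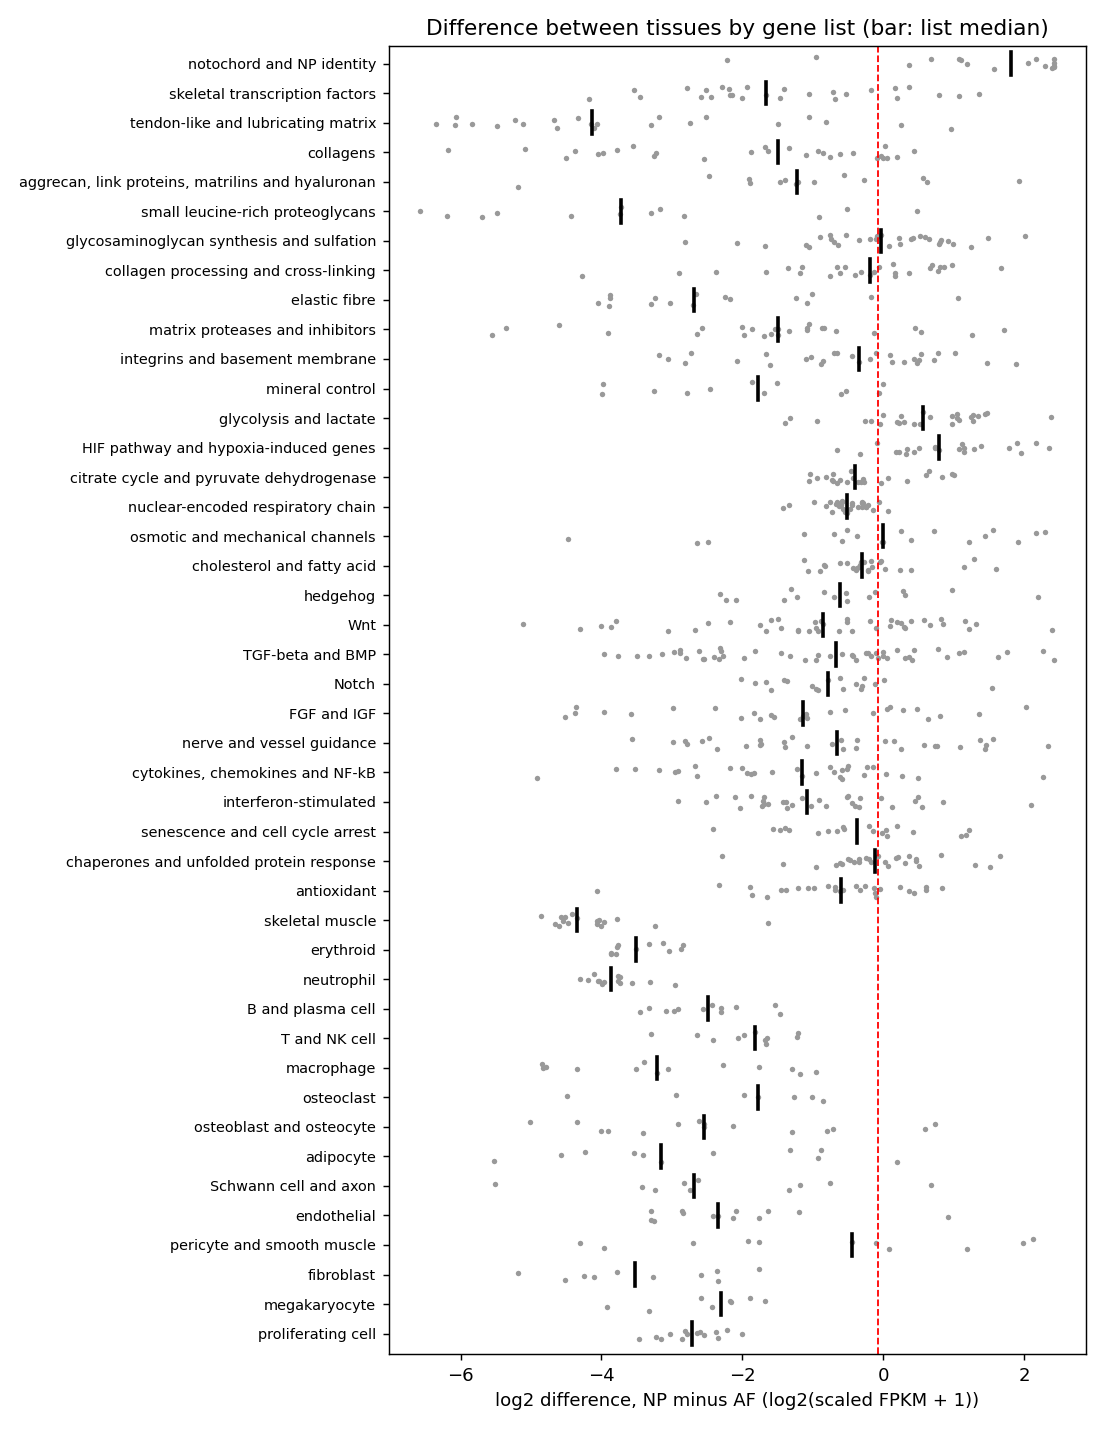
Log2 difference (NP minus AF, log2(scaled FPKM + 1)) of each tested gene in the lists, with 1 grey point per gene, the list median as a black bar and the median of all genes tested (-0.08) as a dashed line. NP identity has the highest median at 1.81, followed by the HIF list at 0.79 and glycolysis at 0.56, and the lists of surrounding cells lie at -0.44 or below.

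Of the 21 genes listed for notochord and NP identity, 16 were tested, and 13 were higher in NP, 2 lower and 1 did not pass, with a median log2 difference of 1.81. As bulk tissue was measured, fewer cells of a type and less RNA per cell cannot be told apart here or in any result below. T had a log2 difference of 2.42 (SE 0.38; limma adjusted p = 3.35e-04). Keratins 8 and 18, the paired filament proteins of simple epithelia and of notochordal cells, followed it closely. Krt8 (chr15:101996698-102004482) stood at 849, 749.7, 883, 856 and 773 in NP libraries and at 112, 394, 199, 119 and 79.6 in AF, without overlap (log2 difference 2.42, SE 0.36; limma adjusted p = 2.17e-04). Krt18 had 235, 179, 158, 129 and 182 against 27.4, 109.5, 18.9, 28.6 and 19.3, a log2 difference of 2.42 (SE 0.41; limma adjusted p = 5.82e-04). Krt19, another keratin and a widely used NP marker, split the NP libraries: it was at 742 and 640 in libraries 1 and 2 and at 1379 to 1442 in libraries 3, 5 and 6. Its AF values were 197, 725, 308, 108 and 92.1, so that AF library 9 overlapped with the NP range (log2 difference 2.30, SE 0.52; limma adjusted p = 0.00321). N-cadherin (Cdh2), the adhesion molecule that joins NP cells into clusters, averaged 215 ± 56.2 in NP and at 49.7 ± 22.0 in AF (SD, n = 5 each), with a log2 difference of 2.17. Cd24a, a surface glycoprotein used to sort NP cells, averaged 3357 ± 352 and 1229 ± 632 (SD, n = 5 each), a log2 difference of 1.57.

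Carbonic anhydrase 3 (Car3), a cytosolic enzyme of the carbonic anhydrase family, had the highest mean of any protein-coding transcript in both tissues. In AF its mean of 4794 was close to that of the neutrophil gene S100a8, at 4677. In AF libraries 8 and 13 S100a8 stood above Car3. Car3 stood at 18951, 24178, 19496, 20519 and 18578 in NP versus 2067, 10912, 5109, 4369 and 1513 in AF, and it made up 4.05% to 5.09% of the protein-coding FPKM of an NP library. The groups did not overlap, and AF library 9 alone held 10912 (log2 difference 2.42, SE 0.52; limma adjusted p = 0.00223). The forkhead factors that act with brachyury in the notochord were low: Foxa2 was at 3.08, 2.15, 3.61, 3.54 and 3.34 in NP libraries and at 1.69, 1.38, 2.26, 0.932 and 1.85 in AF, overlapping slightly (log2 difference 0.67; limma adjusted p = 0.00582), and Noto was among the 5 listed genes that did not pass the filter. Sonic hedgehog (Shh), the signal the notochord sends to neighbouring tissue, was at 7.74 and 9.09 in NP libraries 1 and 2 and at 1.39 to 3.17 in NP libraries 3, 5 and 6, against 0.669, 3.04, 0.763, 1.40 and 0.584 in AF. Its log2 difference of 1.19 (SE 0.42; limma adjusted p = 0.0323) was past the threshold in the fit of all 10 libraries but not without NP library 1 or 2 or AF library 8, 10 or 13 (limma adjusted p up to 0.0781). The members that ran the other way were Car12 at 0.0467 ± 0.0472 against 1.17 ± 0.914 and the angiopoietin receptor Tek at 0.208 ± 0.121 against 4.64 ± 0.763 (SD, n = 5 each), both at a level in NP under 1 scaled FPKM.

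Outside the lists, the naming rule took the 10 protein-coding genes of largest log2 difference in each direction among abundant called genes without overlap. In favour of NP these were Gng13, a G protein gamma subunit, Zim1, Gm45716, Ndnf, Tmeff1, Peg3, Dsp, Tmem255a, Trim29 and the muscarinic acetylcholine receptor Chrm2, with log2 differences from 2.54 to 2.89. Desmoplakin (Dsp), which ties keratin filaments to desmosomes, stood at 232, 201, 176, 167 and 164 in NP versus 23.6, 77.7, 37.2, 32.5 and 10.5 in AF (log2 difference 2.60, SE 0.40; limma adjusted p = 2.98e-04). Peg3, an imprinted zinc finger gene, stood at 629.9, 656, 519, 581 and 545 and 60.8, 163, 114, 131 and 45.9 (log2 difference 2.64, SE 0.31; limma adjusted p = 5.43e-05). In favour of AF they included Apod, Myoc, Serping1, Smoc2, Serpinf1, Serpina1b, Chil1, Cd74 and Fibin, from -6.58 to -4.77. Apolipoprotein D (Apod), a carrier of small lipids in connective tissue, stood at 8.54, 6.71, 18.2, 1.14 and 14.0 in NP libraries and at 518, 247, 1516, 1864 and 989.8 in AF. Serping1, which restrains the complement cascade, averaged 3.93 ± 1.90 in NP against 274 ± 133 in AF (SD, n = 5 each). Serpina1b belongs to a family of near-identical copies, so its value is uncertain.

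The ring was marked by genes of tendon and of lubricated surfaces. In the list of tendon-like and lubricating matrix, 20 of 22 tested genes were lower in NP, 1 was higher and the median was -4.13. Tenomodulin (Tnmd, chrX:133850980-133865577), a membrane glycoprotein of tendon cells, stood at 0.182, 1.59, 0.698, 0.0888 and 2.97 in NP versus 44.6, 27.6, 57.2, 63.2 and 48.4 in AF (log2 difference -4.67, SE 0.36; limma adjusted p = 6.45e-06). Cartilage oligomeric matrix protein (Comp), which bridges collagen fibrils, stood at 6.17, 15.1, 9.25, 2.75 and 19.9 and at 1520, 343, 819, 357 and 812, and was highest in AF library 8 (log2 difference -6.07, SE 0.52; limma adjusted p = 1.00e-05). Lubricin (Prg4), the boundary lubricant of sliding surfaces, averaged 25.9 ± 16.6 in NP and 1077 ± 426 in AF, and cartilage intermediate layer protein (Cilp) averaged 5.85 ± 5.46 and 379 ± 142 (SD, n = 5 each). Chondromodulin (Cnmd), the cartilage relative of tenomodulin, ranged over 17.5 to 140 in AF, with its highest value in library 13, against 0.118 to 6.82 in NP. The 1 member that was higher in NP was tenascin X (Tnxb), at 71.0 ± 17.8 against 36.6 ± 12.3 (SD, n = 5 each), with some overlap.

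Among 27 tested skeletal transcription factors, 20 were lower in NP and 4 were higher, with a median of -1.66. The 4 included Sox9, the master factor of cartilage matrix, and its partners and relatives Sox6 and Sox8. Sox9 stood at 99.3, 127, 178, 126 and 159 in NP libraries and at 53.9, 58.4, 75.3, 33.7 and 47.3 in AF (log2 difference 1.36, SE 0.21; limma adjusted p = 3.28e-04). Pax1, a factor of the sclerotome, separated the tissues the other way at 0.107, 0.299, 1.12, 0.0789 and 2.04 against 36.0, 14.5, 42.0, 23.2 and 31.6 (log2 difference -4.18, SE 0.35; limma adjusted p = 9.10e-06). The tendon factors differed less than the tendon matrix: Scx was at 1.53, 2.59, 2.85, 3.68 and 2.32 in NP against 4.25, 3.80, 5.79, 4.78 and 4.97 in AF, a log2 difference of -0.69 that lost the threshold under quantile normalization (limma adjusted p = 0.364), and Mkx was at 5.46 ± 1.19 against 17.6 ± 6.65 (SD, n = 5 each). Runx2, which drives bone and hypertrophic cartilage genes, averaged 3.68 ± 0.602 and 18.4 ± 6.36 (SD, n = 5 each).

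Collagens form the fibrils and networks of the disc matrix. Of 28 tested collagen genes, 0 were higher in NP with limma, 16 were lower and 12 did not pass, with a median of -1.49; at an unadjusted p under 0.05 the counts were 0 and 18. Col1a1 (chr11:94936224-94953042), the main chain of type I collagen, stood at 26.0, 53.5, 29.5, 25.6 and 46.4 in NP versus 1964, 339, 442, 454 and 514 in AF. AF library 8 stood apart at 1964 (log2 difference -4.05, SE 0.43; limma adjusted p = 3.27e-05). Col3a1, a fibril collagen of loose and healing tissue, stood at 2.62, 29.0, 3.49, 0.256 and 3.97 and at 1003, 105, 194, 839 and 348 (log2 difference -6.18, SE 0.83; limma adjusted p = 1.23e-04). Col2a1, the main chain of cartilage collagen, did not pass the test: it stood at 231, 111, 128, 87.0 and 114 in NP libraries and at 1192, 123, 361, 88.8 and 171 in AF, where library 8 again held 1192 (log2 difference -0.92, SE 0.61; limma adjusted p = 0.224). Col6a1, a chain of the type VI collagen that surrounds disc and cartilage cells, did not pass the test. It was at 221 ± 50.7 in NP and at 245 ± 104 in AF (SD, n = 5 each; limma adjusted p = 0.770). Col10a1, the collagen of hypertrophic chondrocytes, was at 1.10, 7.47, 2.03, 0.237 and 2.67 in NP versus 135, 27.8, 30.9, 25.2 and 35.6 in AF, and AF library 8 again stood highest (log2 difference -3.78; limma adjusted p = 2.05e-04).

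Large proteoglycans differed in both directions. Aggrecan (Acan, chr7:79053483-79115099), the large chondroitin sulfate proteoglycan, stood at 3297, 2261, 2001, 1676 and 1956 in NP libraries and at 683, 1030, 535, 458 and 367 in AF (log2 difference 1.92, SE 0.29; limma adjusted p = 2.42e-04). All NP libraries were above all AF libraries, and Acan made up 0.370% to 0.704% of protein-coding FPKM in NP. Versican (Vcan), the related proteoglycan of fibrous and embryonic matrix, ran the other way at 1.33, 1.92, 4.61, 0.641 and 9.05 against 150.4, 62.2, 198, 141 and 149.7 (log2 difference -5.19, SE 0.47; limma adjusted p = 1.37e-05). The link protein Hapln1, which locks aggrecan to hyaluronan, was at 153 ± 74.0 in NP and at 99.4 ± 33.6 in AF (SD, n = 5 each) and did not pass (limma adjusted p = 0.141). In that list of aggrecan, link proteins, matrilins and hyaluronan genes, 9 of 14 tested were lower in NP and 2 were higher.

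The small leucine-rich proteoglycans, which coat and space collagen fibrils, were lower in NP for 11 of 13 tested genes and higher for 0, with a median of -3.72. Decorin (Dcn, chr10:97479609-97518143) stood at 19.7, 67.6, 38.5, 5.22 and 91.8 in NP versus 4215, 1392, 3993, 3706 and 2865 in AF, where library 9 was lowest. Biglycan (Bgn) averaged 67.7 ± 14.8 and 980.1 ± 451, and chondroadherin (Chad), a cartilage member that binds cells and collagen, averaged 18.4 ± 15.8 and 1222 ± 625 (SD, n = 5 each). Chad differed by -6.19 on the log2 scale (SE 0.60; limma adjusted p = 1.88e-05). Fibromodulin (Fmod) was an exception at 1509, 1131, 786, 742 and 838 in NP and 799, 730.5, 845, 616 and 527 in AF, overlapping between tissues (log2 difference 0.48, SE 0.22; limma adjusted p = 0.0946).

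The enzymes that build sulfated sugar chains showed no common direction: 11 of 33 tested genes were higher in NP and 10 lower, with a median of -0.03 that lay between -0.09 and 0.35 under other scalings. Xylt1, which starts the chains on core proteins, stood at 198, 171, 170.2, 174 and 146 in NP libraries and at 61.5, 72.9, 71.3, 53.6 and 47.6 in AF (log2 difference 1.48, SE 0.13; limma adjusted p = 1.34e-05). Csgalnact1, which commits a chain to chondroitin sulfate, stood at 257, 175, 177, 138 and 140.2 and at 45.6, 75.5, 32.3, 49.7 and 24.0 (log2 difference 2.01), whereas its paralogue Csgalnact2 averaged 26.7 ± 3.57 and 89.5 ± 21.5 (SD, n = 5 each), a log2 difference of -1.68. Ugdh, which makes the glucuronate donor, and the sulfate transporter Slc26a2 were higher in NP by 0.80 and 0.65.

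For collagen processing and cross-linking, 6 of 27 tested genes were higher in NP and 11 lower. Lysyl oxidase (Lox), which starts collagen and elastin cross-links, stood at 1.89, 5.46, 5.36, 5.26 and 6.98 in NP versus 245, 36.1, 138, 126 and 96.5 in AF (log2 difference -4.27, SE 0.45; limma adjusted p = 2.90e-05). Its relative Loxl2 was higher in NP, with 90.0 ± 15.1 against 52.6 ± 24.9 (SD, n = 5 each), although AF library 8 overlapped with 94.3. The prolyl hydroxylase subunit P4ha1 was also higher, by 0.81. Of 16 tested elastic fibre genes 14 were lower in NP, with elastin (Eln) at 0.284 ± 0.395 against 7.99 ± 4.75 and fibrillin 1 (Fbn1) at 0.893 ± 0.367 against 32.5 ± 13.4 (SD, n = 5 each). Ltbp1, which stores latent TGF-beta in the matrix, was the 1 that was higher, at 104 ± 25.1 against 48.5 ± 6.58 (SD, n = 5 each).

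Of 26 tested matrix proteases and inhibitors, 21 were lower in NP and 3 were higher, with a median of -1.49. The serine protease Htra1 stood at 2138, 2169, 1628, 1582 and 1458 in NP libraries and at 500.2, 996, 531, 573 and 308 in AF (log2 difference 1.71, SE 0.28; limma adjusted p = 4.02e-04). Adamts1 and the inhibitor Timp3, which acts on aggrecanases, were the other members higher in NP, by 1.26 and 0.53. The gelatinase Mmp2 stood at 0.804, 5.48, 2.77, 0.256 and 3.27 in NP versus 241, 46.5, 99.3, 286 and 167 in AF (log2 difference -5.56, SE 0.55; limma adjusted p = 2.18e-05). The collagenase Mmp13 averaged 2.80 ± 2.52 against 79.5 ± 25.7, and the aggrecanase Adamts5 averaged 2.21 ± 0.806 against 7.93 ± 2.00 (SD, n = 5 each). Among mineral control genes 10 of 12 tested were lower in NP and 0 higher (limma), among them the secreted protein Mgp, an inhibitor of calcification, at 363, 285, 368, 292 and 379 in NP and 1355, 503, 856, 538 and 2587 in AF, with AF library 13 the highest. The pyrophosphate transporter Ank averaged 8.39 ± 1.91 and 91.7 ± 29.3 (SD, n = 5 each).

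Of 29 tested integrin and basement membrane genes, 8 were higher in NP and 14 lower. Laminin beta 3 (Lamb3), a chain of epithelial basement membranes, stood at 51.6, 50.2, 47.1, 45.3 and 63.2 in NP libraries and at 14.7, 33.8, 13.9, 7.94 and 6.78 in AF (log2 difference 1.88, SE 0.34; limma adjusted p = 8.35e-04). The collagen receptor Itga1 was higher by 1.47, whereas Itgb3, an integrin of platelets and osteoclasts, was lower at 3.40 ± 2.50 against 32.9 ± 11.5 (SD, n = 5 each). Platelet and osteoclast markers were lower in NP as well, as given below, and their part in Itgb3 was not tested.

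**Figure D3:**
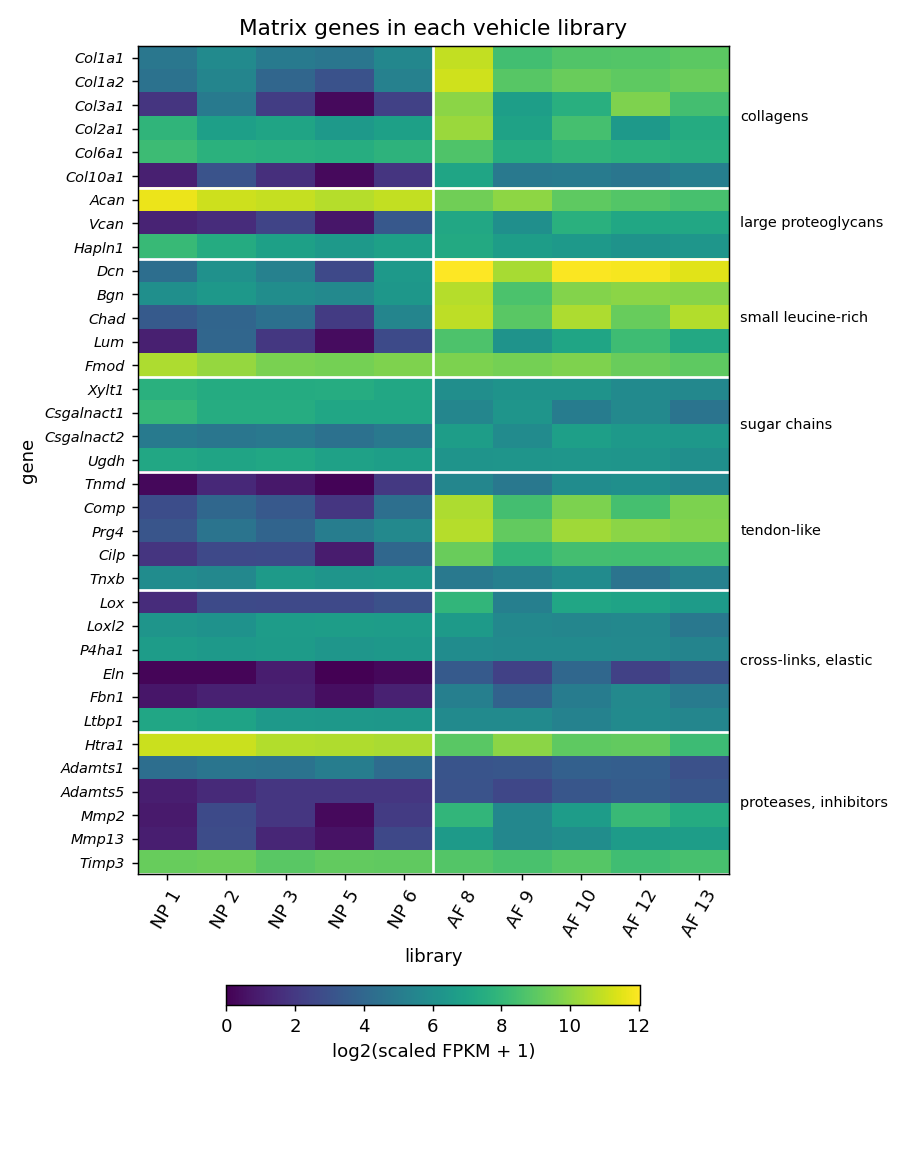
Heat map of log2(scaled FPKM + 1) for matrix genes, with 1 column per vehicle library and genes in rows grouped by class. All genes shown except Col1a2 and Lum are named in the text. Acan, Htra1 and Xylt1 are brightest in the 5 NP columns, the type I and III collagens and decorin are brightest in the 5 AF columns, and AF library 8 is the brightest column for Col1a1, Col2a1 and Col10a1.

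Metabolic genes differed by pathway. Of 27 tested genes of glycolysis and lactate handling, 15 were higher in NP, 3 lower and 9 did not pass, with a median of 0.56, and the list summed to 2.38% to 2.74% of protein-coding FPKM in NP libraries against 1.19% to 1.95% in AF libraries. The glucose transporter Slc2a1 (Glut1, chr4:119108711-119137983) stood at 439, 532, 829.6, 755 and 654 in NP versus 86.5, 329, 198, 79.3 and 53.0 in AF (log2 difference 2.38, SE 0.44; limma adjusted p = 9.45e-04). All NP libraries were above all AF libraries, and AF library 9 again came closest. Phosphoglycerate kinase (Pgk1) stood at 937, 900.1, 723, 741 and 631 and at 270.3, 477, 298, 360.3 and 193 (log2 difference 1.34, SE 0.23; limma adjusted p = 5.12e-04). Lactate dehydrogenase A (Ldha), which regenerates NAD from pyruvate, stood at 1206, 1270, 1214, 1194 and 1060 and at 488, 867, 588, 663 and 376 (log2 difference 1.05, SE 0.21; limma adjusted p = 0.00147). Pdk1, the kinase that shuts pyruvate dehydrogenase, was higher by 0.98. Gapdh and Aldoa did not pass, with Gapdh at 2807 ± 413 and 2120 ± 533 and Aldoa at 1584 ± 186 and 1406 ± 559.7 (SD, n = 5 each); AF libraries 9 and 12 were the highest for Aldoa, at 1901 and 2107. The 3 that were lower in NP were Pfkm, the muscle form of phosphofructokinase, the lactate carrier Slc16a1 and Pfkfb4. Pfkm had its highest values in AF library 12, at 154, and in NP library 3, at 48.5, which were also the highest libraries of their tissue for the sum of muscle genes, whose part in this difference was not tested.

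The hypoxia list went the same way. HIF, the transcription factor stabilised at low oxygen, binds a short core motif and raises genes of glucose use, pH control and vessel growth. Of its 23 listed genes all were tested, and 17 were higher in NP, 1 lower and 5 did not pass, with a median of 0.79. The message of Hif1a itself did not pass, at 80.1 ± 11.7 in NP and at 68.4 ± 10.5 in AF (SD, n = 5 each; limma adjusted p = 0.177). The mitochondrial protein Bnip3 stood at 793, 912, 1013, 859.9 and 805 in NP libraries and at 155, 405, 325, 259.8 and 127 in AF (log2 difference 1.90, SE 0.29; limma adjusted p = 2.71e-04). Carbonic anhydrase 9 (Car9), which exports acid at the cell surface, stood at 38.6, 33.6, 57.6, 40.2 and 35.4 and at 4.69, 14.0, 12.4, 6.77 and 3.00 (log2 difference 2.35, SE 0.34; limma adjusted p = 1.91e-04). Vegfa, the main vessel growth factor, stood at 153, 213, 184, 199.6 and 204 and at 31.1, 96.8, 64.7, 38.5 and 33.2 (log2 difference 1.96, SE 0.28; limma adjusted p = 1.93e-04). The oxygen sensor Egln3 averaged 127 ± 20.5 and 37.9 ± 14.8 (SD, n = 5 each). The 1 member lower in NP was Stc2, by -0.65, and it lost the threshold in 12 of 21 other settings, among them quantile normalization (limma adjusted p = 0.315) and the fits without NP library 1, 2 or 6 or AF library 8, 10 or 13.

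Since many genes of both lists were higher in NP, their promoters were read for the HIF core. The letters ACGTG were searched on both strands in RefSeq promoter windows of 300 bases (build GRCm38.p6, 250 bases before to 50 after a transcript start). They were present in 19.6% of all 32851 windows, in 47.5% of 40 windows of the glycolysis list and in 50.0% of 24 windows of the hypoxia list, of which RefSeq windows matched 26 of 27 and 18 of 23 genes. The windows of genes called higher held it in 40.9% and 53.3%, and 3 of the 6 windows of the glycolysis genes called lower held it too. The T-box motif aggtgtga, searched in the same way, was in 0 of 12 windows of the NP identity list and in 1.3% of all windows, which says only that these letters are not in those windows. A match is a description of letters and not a site of binding. As the hypoxia list was made of HIF pathway and hypoxia-induced genes, its share against all windows tests nothing about these tissues. The stretches of 5 genes called higher in NP are shown, 5′ to 3′ on the strand of the gene and upstream of its start, with the core in capitals (CACGT is the core on the other strand).
Slc2a1, chr4:119108681-119108741, plus strand: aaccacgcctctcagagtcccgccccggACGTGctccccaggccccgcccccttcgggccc
Pgk1, chrX:106186922-106187001, plus strand: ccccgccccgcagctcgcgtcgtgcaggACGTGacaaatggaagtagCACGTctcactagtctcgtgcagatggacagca
Ldha, chr7:46845728-46845802, plus strand: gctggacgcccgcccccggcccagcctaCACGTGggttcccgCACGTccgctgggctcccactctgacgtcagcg
Bnip3, chr7:138909581-138909642, minus strand: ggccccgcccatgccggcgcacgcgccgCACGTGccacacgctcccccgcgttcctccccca
Car9, chr4:43506980-43507025, plus strand: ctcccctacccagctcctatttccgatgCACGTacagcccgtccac

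Genes of mitochondrial respiration were read next. Of 30 tested nuclear genes of the respiratory chain, 18 were lower in NP, 0 were higher with limma (0 higher and 21 lower at an unadjusted p under 0.05) and 12 did not pass, with a median of -0.52. Under upper quartile scaling 12 of the 30 were lower, with a median of -0.40. The ATP synthase subunit Atp5b stood at 328, 353, 352, 297 and 294 in NP versus 455, 570.2, 428, 697 and 457 in AF (log2 difference -0.66, SE 0.15; limma adjusted p = 0.00337). AF library 12, the richest in muscle RNA, held the highest value. Without that library 17 of the 30 genes were lower, with a median of -0.40. The other AF libraries also held muscle RNA, whose part in this count was not tested. Ndufs1 and Cox4i1, subunits of the first and the last complex that carry electrons, did not pass, with log2 differences of -0.22 and -0.30. In the citrate cycle list 15 of 24 tested genes were lower and 5 higher, and the count lower was 8 under TPM or upper quartile scaling. The list summed to 1515 and 1745 scaled FPKM in AF libraries 9 and 12. In the other AF libraries it summed to 1174 to 1218, against 1177 to 1270 in NP. Muscle genes also summed highest in AF libraries 9 and 12, at 7485 and 14903, and their part in these counts was not tested. Citrate synthase (Cs) stood at 32.5, 33.4, 41.9, 33.7 and 31.9 in NP libraries and at 67.9, 74.5, 59.4, 94.2 and 67.4 in AF (log2 difference -1.04, SE 0.13; limma adjusted p = 7.82e-05), while Pdha1, a subunit of pyruvate dehydrogenase, was higher in NP, with 164 ± 17.9 against 85.5 ± 23.6 (SD, n = 5 each).

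**Figure D4:**
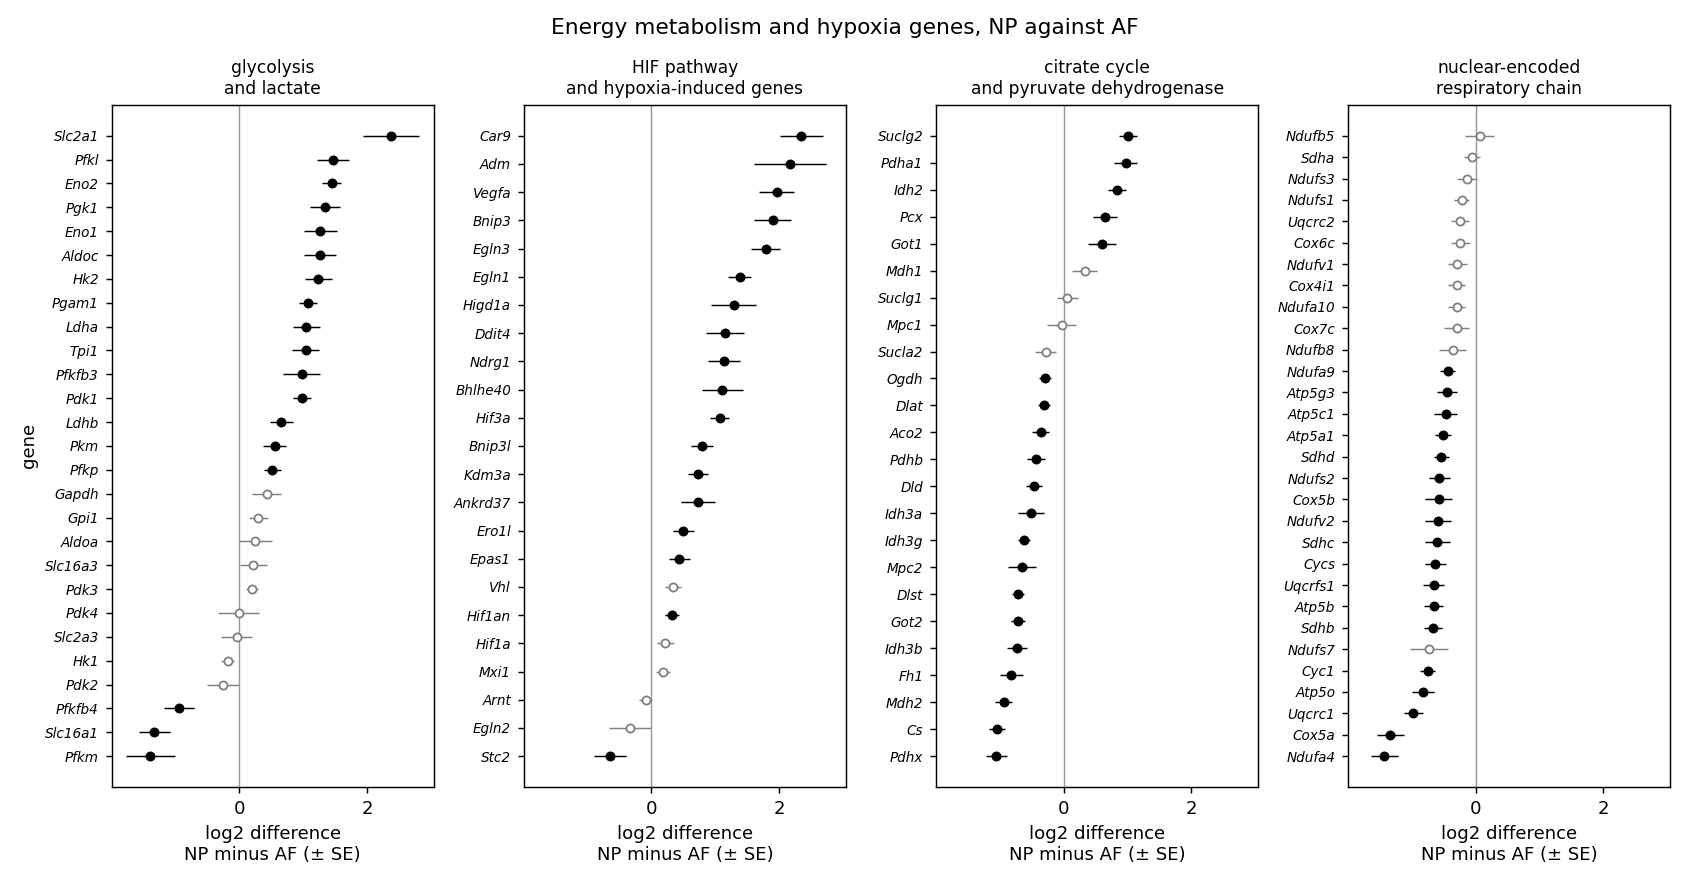
Log2 difference (NP minus AF) with its standard error for every tested gene of glycolysis, the HIF list, the citrate cycle and the respiratory chain, 5 libraries a tissue; filled points passed limma at an adjusted p under 0.05 and open points did not. Slc2a1 and Car9 are the rightmost points of their panels at 2.38 and 2.35, and the filled respiratory chain points all lie left of 0.

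NP cells face high and changing salt as their matrix is loaded, and of 19 tested osmotic and mechanical channel genes 8 were higher in NP and 4 lower, with a median of -0.01 whose sign changed with the scaling (from -0.07 to 0.20). Without AF library 9 the count lower was 7. The kinase Wnk1, which senses chloride, stood at 1343, 1345, 979.7, 867 and 843 in NP versus 220.2, 432, 315, 336 and 167 in AF (log2 difference 1.91, SE 0.26; limma adjusted p = 1.35e-04). Downstream of it, the kinase Stk39 averaged 177 ± 41.8 and 41.9 ± 22.8 (SD, n = 5 each). Their target, the sodium, potassium and chloride importer Slc12a2, stood at 819, 590.0, 363, 265 and 391 in NP libraries and at 97.4, 223, 46.7, 143 and 42.4 in AF (log2 difference 2.29, SE 0.47; limma adjusted p = 0.00175). The osmotic factor Nfat5 and the channels Trpv4 and Piezo1 did not pass, with log2 differences of -0.59, -0.70 and -0.38. Nfat5 passed without AF library 9 (limma adjusted p = 0.00231), Piezo1 without AF library 12, and Trpv4 without NP library 6 or AF library 9 or 12. The water channel Aqp1, also a protein of red cells and capillaries, was at 7.66, 5.84, 4.52, 4.08 and 17.1 in NP and 209.8, 149, 184, 148 and 185 in AF. In the list of cholesterol and fatty acid genes 3 of 26 were higher in NP and 10 lower (6 under TPM scaling), and Scd2, a desaturase, was at 419 ± 75.4 against 142 ± 49.1 whereas Scd1 was at 149.5 ± 34.0 against 267 ± 61.9 (SD, n = 5 each).

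Of 16 tested genes of the hedgehog pathway 2 were higher in NP and 8 lower (5 lower under quantile normalization). Disp1, which releases lipid-bound hedgehog from the cell that makes it, stood at 155, 175, 170.5, 313 and 313 in NP versus 36.9, 109, 67.9, 29.2 and 25.1 in AF (log2 difference 2.20, SE 0.39; limma adjusted p = 7.36e-04). Within NP it was at 313 in libraries 5 and 6 and at 155 to 175 in the others. The target Gli1 stood at 0.975, 0.918, 0.475, 0.592 and 0.711 in NP libraries and at 7.38, 3.97, 6.22, 5.56 and 9.94 in AF (log2 difference -2.09, SE 0.20; limma adjusted p = 1.66e-05). The target and decoy Hhip averaged 0.0844 ± 0.0799 and 4.79 ± 2.37, and the receptor Ptch1 averaged 18.7 ± 1.49 and 29.6 ± 13.6 (SD, n = 5 each), without passing (limma adjusted p = 0.0995), although it passed without AF library 9 (limma adjusted p = 0.0141).

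In the Wnt list 9 of 43 tested genes were higher in NP and 24 lower, with a median of -0.85. Under quantile normalization 15 were higher and 18 lower, with a median of -0.36. The ligand Wnt16 stood at 52.5, 71.3, 86.1, 86.7 and 73.8 in NP versus 7.90, 45.9, 17.6, 13.1 and 3.91 in AF (log2 difference 2.40, SE 0.49; limma adjusted p = 0.00166). The co-receptors Lrp5 and Lrp6 were higher by 1.22 and 1.16. The secreted inhibitors Wif1 and Frzb were lower, with Wif1 at 0.300, 1.70, 2.36, 0.266 and 3.37 in NP and 109, 61.3, 110.3, 67.5 and 63.0 in AF (log2 difference -5.12, SE 0.36; limma adjusted p = 4.65e-06) and Frzb at 5.02 ± 3.92 against 90.3 ± 50.9 (SD, n = 5 each). The feedback target Axin2 was lower as well, at 0.522 ± 0.0723 against 1.76 ± 0.392 (SD, n = 5 each).

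For TGF-beta and BMP, 10 of 50 tested genes were higher in NP and 27 lower, with a median of -0.67. The activin receptor Acvr2a stood at 142, 94.4, 97.6, 82.5 and 93.2 in NP libraries and at 16.1, 31.8, 17.3, 30.3 and 12.2 in AF (log2 difference 2.26, SE 0.26; limma adjusted p = 4.70e-05), and Id4, an inhibitor of helix-loop-helix factors, averaged 316 ± 48.0 and 64.4 ± 32.1 (SD, n = 5 each). The ligand Tgfb1, which marrow cells and platelets also carry, averaged 10.8 ± 4.06 and 70.5 ± 18.4, and the ligand Bmp2 averaged 0.402 ± 0.0769 and 6.11 ± 1.56 (SD, n = 5 each). The matrix targets Ctgf and Tgfbi were lower in NP by -2.32 and -3.96. Among FGF and IGF genes 4 of 27 were higher in NP and 18 lower. Fgf1 stood at 207, 168, 124, 136 and 148 in NP versus 30.1, 86.3, 34.1, 40.6 and 18.6 in AF (log2 difference 2.03, SE 0.33; limma adjusted p = 3.92e-04). The receptor Igf1r was higher in NP, with 59.1 ± 3.86 against 22.4 ± 2.24, whereas its ligand Igf1 was lower at 1.17 ± 0.724 against 47.1 ± 22.4 (SD, n = 5 each), as were the binding proteins Igfbp4, Igfbp5 and Igfbp7.

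In the Notch list 12 of 19 tested genes were lower in NP (6 under quantile normalization) and 1, the co-activator Maml2, was higher, at 50.7 ± 10.8 against 16.8 ± 3.46 (SD, n = 5 each). The receptor Notch2 averaged 8.33 ± 1.62 and 29.0 ± 8.16, and the ligand Jag1 averaged 0.858 ± 0.424 and 4.73 ± 1.67 (SD, n = 5 each). Of 32 tested genes that guide nerves and vessels 8 were higher in NP and 17 lower. The repellent Slit2 stood at 186, 188, 130.3, 132 and 116 in NP libraries and at 19.3, 56.4, 29.2, 30.6 and 18.1 in AF (log2 difference 2.34, SE 0.28; limma adjusted p = 6.30e-05). Sema3a, a repellent of axons and vessels, was at 0.0385 ± 0.0441 against 5.24 ± 1.24 (SD, n = 5 each), with NP values of at most 0.109.

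Genes of inflammation were mostly lower in NP, and so were marker genes of marrow and blood cells. Of 31 tested cytokine, chemokine and NF-kB genes, 23 were lower in NP and 2 higher, with a median of -1.15. The chemokine Cxcl12, made by marrow stroma, stood at 34.9, 21.8, 26.4, 12.0 and 47.1 in NP versus 285, 312, 314, 237 and 408 in AF (log2 difference -3.52, SE 0.30; limma adjusted p = 1.04e-05). Osteoprotegerin (Tnfrsf11b), the decoy receptor that blocks osteoclast formation, was higher in NP, with 350.4, 297, 338, 435 and 356 against 55.9, 124, 104, 62.7 and 44.8 (log2 difference 2.26, SE 0.26; limma adjusted p = 4.77e-05). Il6 and Ptgs2, classic products of inflamed disc cells, were low in both tissues and did not pass, at 0.314 ± 0.156 and 2.77 ± 0.773 in NP against 0.993 ± 0.863 and 1.72 ± 0.779 in AF (SD, n = 5 each). Ptgs2 passed as higher in NP in 6 other settings, among them those without NP library 2 or AF library 8 (limma adjusted p from 0.0015 to 0.0472), and Il6 passed as lower without AF library 9 (limma adjusted p = 0.0324). The neutrophil genes summed to 225 to 3415 scaled FPKM in NP and to 8116 to 21436 in AF, and their part in these counts was not tested.

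Of 32 tested interferon-stimulated genes 20 were lower in NP and 3 higher (6 higher under quantile normalization), with a median of -1.08. The count higher was 1 without NP library 2 or 5 or AF library 13. B2m, the light chain of class I antigen presentation, stood at 434, 399.8, 271, 289 and 478 in NP and 1395, 1073, 758, 1534 and 1098 in AF, without overlap (log2 difference -1.64, SE 0.23; limma adjusted p = 1.57e-04). Ifit1, which binds foreign RNA, averaged 3.20 ± 0.582 in NP and 8.29 ± 4.18 in AF (SD, n = 5 each). Ifi44 was higher in NP, with 63.1, 58.1, 38.2, 33.8 and 46.8 against 11.0, 21.9, 4.84, 15.5 and 5.73 (log2 difference 2.09; limma adjusted p = 5.99e-04). The interferon response element was searched as GAAA, any 2 bases and GAAA again, on both strands in the same windows; 3.4% of all 32851 windows held it and 41.4% of 29 windows of this list did. Among genes called lower it was in 9 of 19 windows, and among genes called higher in 0 of 3. Those 3 windows belong to 2 genes, too few for a contrast. As the list was made of interferon-stimulated genes, its share against all windows tests nothing about these tissues. The stretches of B2m and Ifit1 are shown because they carry the element and were lower in NP, with the element in capitals.
B2m, chr2:122147520-122147585, plus strand: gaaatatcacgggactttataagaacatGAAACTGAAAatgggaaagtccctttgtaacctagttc
Ifit1, chr19:34640757-34640841, plus strand: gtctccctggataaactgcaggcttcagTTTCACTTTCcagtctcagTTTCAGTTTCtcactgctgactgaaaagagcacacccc

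In the senescence and cell cycle arrest list 3 of 20 tested genes were higher in NP and 8 lower, with a median of -0.38. Cdkn2a, which encodes p16 and p19, was at 0.300, 0.371, 0.759, 1.13 and 0.375 in NP versus 0.397, 0.579, 0.343, 0.285 and 0.207 in AF, overlapping and low (limma adjusted p = 0.309). It passed as higher in NP under quantile normalization (log2 difference 0.66, limma adjusted p = 0.00423). Its neighbour Cdkn2b stood at 5.11, 5.33, 7.42, 6.07 and 5.52 and at 1.95, 2.46, 2.83, 2.01 and 1.16 (log2 difference 1.18, SE 0.17; limma adjusted p = 1.65e-04), and Cdkn1a was at 29.1 ± 12.2 and 42.3 ± 13.7 (SD, n = 5 each; limma adjusted p = 0.164). Lamin B1 (Lmnb1) was lower in NP at 4.76 ± 1.96 against 29.9 ± 10.3 (SD, n = 5 each). Of 28 tested chaperone and unfolded protein genes 5 were higher in NP and 10 lower. The count higher was 9 under upper quartile scaling or quantile normalization and 3 without a scaling factor. The list median of -0.12 changed sign under quantile normalization, at 0.02. The small heat shock protein Hspb1 was at 201, 177, 375, 386 and 395 in NP and 74.6, 193, 141, 64.2 and 77.4 in AF, and the endoplasmic chaperone Hspa5 was lower by -0.50. Of 28 tested antioxidant genes 4 were higher in NP and 17 lower: the extracellular dismutase Sod3 was at 1.37 ± 0.767 against 39.9 ± 14.4, and Nqo1 was higher in NP, with 46.8 ± 13.8 against 25.5 ± 5.67 (SD, n = 5 each).

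Of immediate early genes, which can rise within minutes of handling, 4 of 16 were lower in NP and 0 higher with limma. Fos was at 20.0, 27.7, 361, 137 and 146 in NP and 66.5, 29.4, 275, 59.6 and 90.3 in AF, so it varied within both tissues by more than between them, and NP library 3 and AF library 10 were highest. The Y-linked genes were present in all 10 libraries, with Ddx3y at 22.1 to 40.2.

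Markers of the cells that surround the disc were lower in NP for most members, and they varied between libraries. Of the 15 lists of surrounding and cycling cells, 11 had 0 members higher in NP. For skeletal muscle all 17 tested genes were lower with a median of -4.35, but only 3 did not overlap between the tissues. The median was -5.30 without NP library 3 and -3.66 without NP library 1. Mylpf, a myosin light chain of fast muscle, was at 5.62, 41.4, 398, 22.9 and 28.7 in NP libraries and at 253, 1824, 1085, 4347 and 741 in AF. NP library 3 was the highest NP library for the muscle sum, at 2306, above the lowest AF library at 1705, and AF library 12 was the highest at 14903. Marrow cells followed another pattern. The neutrophil protein S100a8 stood at 644, 83.6, 112, 229 and 1205 in NP versus 6722, 4193, 2771, 2997 and 6701 in AF (log2 difference -3.96, SE 0.68; limma adjusted p = 5.89e-04). NP library 6 was the highest NP library for this gene and for Elane, Ighm, Itga2b and Mki67 as well. All 14 neutrophil, all 11 erythroid, all 12 B and plasma cell, all 11 T and NK cell and all 8 megakaryocyte genes tested were lower in NP, as were all 14 genes of cycling cells, with Mki67 at 6.55 ± 4.21 against 76.0 ± 17.7 (SD, n = 5 each). Under quantile normalization 7 of the 11 T and NK cell genes were lower. For the red cell genes Hba-a1, Hba-a2 and Hbb-bs, near-identical copies make single values uncertain. The T cell receptor gene Trac was at 52.9 in AF library 12 and at 3.02 to 7.03 in the other AF libraries.

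Macrophage markers were lower in NP for 13 of 13 tested genes, with C1qa at 1.77, 0.547, 2.74, 0.996 and 11.0 in NP and 97.8, 53.3, 106, 107 and 114 in AF. Csf1r, the receptor for the macrophage growth factor, differed less, at 27.5 ± 3.65 against 54.3 ± 8.14 (SD, n = 5 each). Bone cells were marked in AF by Ibsp, bone sialoprotein, at 5.04 ± 5.80 in NP and at 155 ± 109 in AF (SD, n = 5 each), with the highest value, 349, in library 8, and by the osteocyte gene Sost at 0.641 ± 0.731 against 20.3 ± 16.4 (SD, n = 5 each). Of 15 osteoblast and osteocyte genes 11 were lower and 1 was higher, and osteopontin (Spp1), which cartilage and disc cells also make, was at 6725, 8052, 5567, 5921 and 5271 in NP and 4334, 4203, 4929, 4327 and 3169 in AF without passing (limma adjusted p = 0.0679). All NP libraries were above all AF libraries for Spp1. It passed as higher in NP in 4 other settings, among them upper quartile scaling (limma adjusted p from 0.00724 to 0.0392). All 7 tested osteoclast genes were lower in NP, with Ctsk at 56.2 ± 10.3 against 233 ± 90.3 (SD, n = 5 each).

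Vessel and nerve markers were mostly lower in NP. Of 13 endothelial genes 12 were lower in NP, with Pecam1 at 1.65, 1.26, 1.83, 1.06 and 2.33 in NP and 34.5, 16.8, 20.9, 18.6 and 37.7 in AF (log2 difference -3.29, SE 0.24; limma adjusted p = 4.98e-06), and 1, the VEGF receptor Flt1, was higher at 16.6 ± 5.28 against 8.11 ± 1.48 (SD, n = 5 each). Cdh5 and Kdr, defining endothelial genes, had NP values of at most 0.546 and 0.355. Of 10 tested Schwann cell and axon genes 8 were lower, and 1, S100b, a calcium-binding protein also of cartilage, was higher at 149 ± 21.3 against 93.2 ± 18.8 (SD, n = 5 each). In the list of pericytes and smooth muscle 3 of 11 were higher and 5 lower. The contractile genes Acta2, Tagln and Myh11 were the higher ones: smooth muscle actin (Acta2) stood at 1073, 598, 514, 495 and 632 in NP libraries and at 133, 382, 101, 125 and 99.6 in AF (log2 difference 2.12, SE 0.36; limma adjusted p = 5.49e-04). The pericyte genes Rgs5 and Pdgfrb were lower, with Rgs5 at 0.322, 1.00, 2.30, 0.138 and 0.573 and 40.1, 17.8, 30.3, 42.7 and 45.0 (log2 difference -4.31, SE 0.32; limma adjusted p = 5.59e-06). Fibroblast genes were lower for 10 of 10, with Pdgfra at 0.574 ± 0.165 against 30.5 ± 10.5, and fat cell genes for 10 of 11, with Adipoq at 1.52 ± 0.940 against 44.1 ± 9.43 (SD, n = 5 each).

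**Figure D5:**
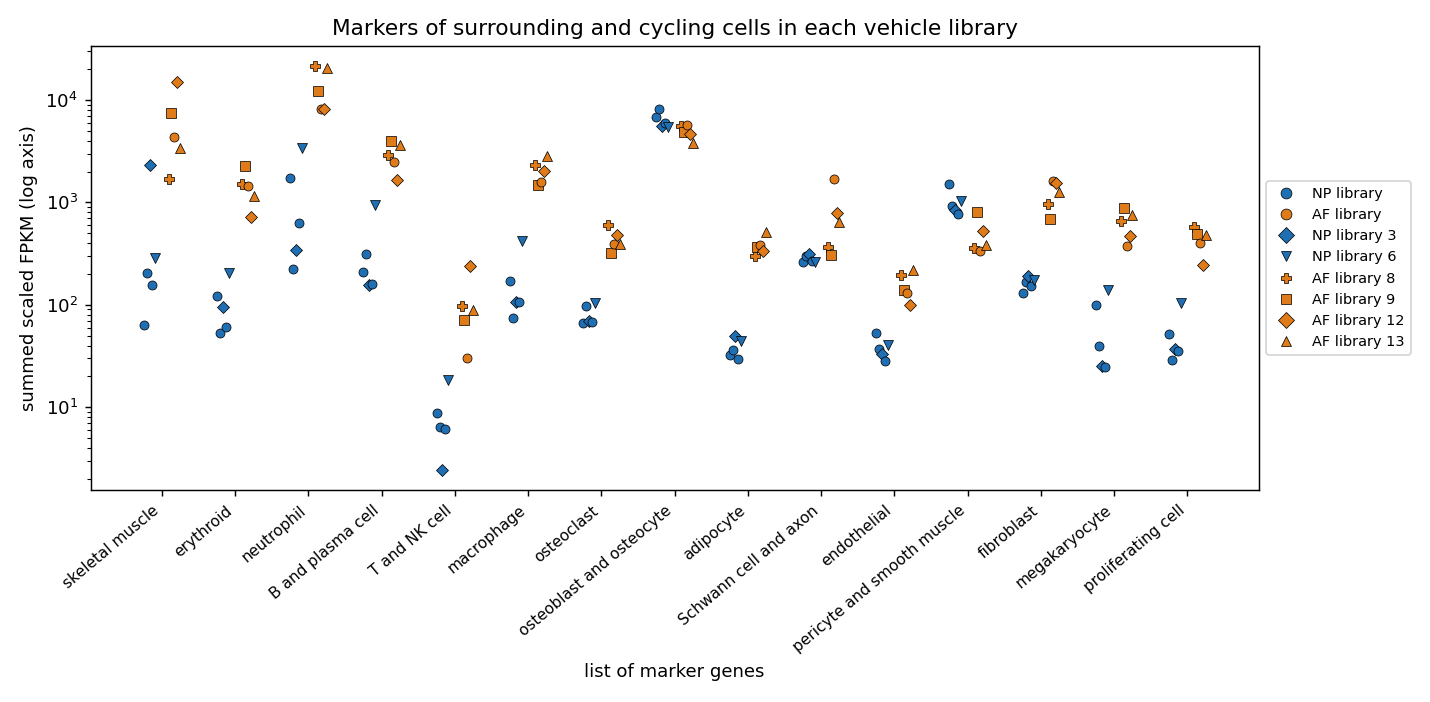
Sum of scaled FPKM over the tested genes of each surrounding cell list in each vehicle library, on a log axis, with NP in blue and AF in orange and selected libraries labelled by shape. Neutrophil genes sum to 225 to 3415 in NP and to 8116 to 21436 in AF, and muscle genes to 63.2 to 2306 and 1705 to 14903; NP points lie mostly above AF points for pericyte and smooth muscle genes and for osteoblast and osteocyte genes, whose sum includes Spp1.

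By level, the 10 most abundant protein-coding genes of NP included Car3, Spp1, Vim, Lgals3, Cd24a, Gapdh and Acan, and the 10 together made up 11.0% to 13.7% of protein-coding FPKM. Vimentin (Vim), the filament protein of mesenchymal cells, stood at 5305, 5273, 5774, 4889 and 4456 in NP versus 1319, 2678, 2039, 1926 and 1013 in AF, and galectin 3 (Lgals3), a sugar-binding protein of notochordal NP, stood at 4329, 5219, 3831, 5005 and 4285 and at 912, 2098, 1632, 1240 and 703. Their log2 differences were 1.59 (SE 0.28; limma adjusted p = 6.40e-04) and 1.88 (SE 0.30; limma adjusted p = 3.32e-04). In AF the 10 included 3 neutrophil genes, S100a8, S100a9 and Ngp, and 1 NP marker, Car3, beside the matrix genes Spp1, Dcn and Fn1. Fibronectin (Fn1) did not pass the test, at 2582, 1572, 1338, 1480 and 1711 in NP and 5818, 882, 1862, 1871 and 1848 in AF, where library 8 stood apart (limma adjusted p = 0.640).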

How the data were processed

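RNA of NP and AF tissue was sequenced as ribosomal-depleted, stranded libraries, per the labels' protocol. The authors deposited 1 table of FPKM (fragments per gene, relative to its length and the library's total) for 20 libraries, with 2 decimals and no further scaling stated. STAR 2.7.11b and the mm10 build are listed in the submitters' processing notes; the gene counter and the annotation are not given in the sources used here.

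FPKM were divided by a median-ratio factor per library (0.933 to 1.062, over 11308 genes at 1 FPKM or more in every library). Of 51789 genes, 16383 reached 1 FPKM in 5 or more of the 20 libraries and were tested. Differences of log2(scaled FPKM + 1) were tested with limma 3.58.1 (eBayes with trend, two-sided) in R 4.3.3 on the 10 vehicle libraries, with Benjamini-Hochberg adjustment over all genes tested. A called gene has an adjusted p under 0.05. In simulated data both groups were made from the means and spreads of the AF libraries. There 200 of the 16383 genes were changed, all with a mean log2 value above 2. A log2 change of 1 was found for 122 of 200 genes and a change of 2 for 182 of 200. Far fewer genes differed there than were called here, so these shares need not hold for this comparison or for low genes. No count test was run: 69.9% to 75.3% of the low values checked lay on whole-read steps, which is too few to recover counts but gives the depth quoted. Because 75 tested genes share their values with another gene, overlapping models and near-identical copies remain uncertain.

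The lists, the members and the rule for named genes were chosen with earlier results of these data known. The rule took marked genes of each list, up to 3 called members in each direction with the highest mean in the higher tissue, the 10 protein-coding genes outside the lists with the largest difference in each direction (mean of at least 20, no overlap), and the 10 most abundant genes of each tissue. Any other gene named was chosen after its values were seen, and a few genes taken by the rule are not reported here. Alternatives changed the scaling, pseudocount, filter, trend and groups in the fit, or left out each library in turn. A block on a number shared between column names, and scaling to the protein-coding sum, were added after seeing the data. Coordinates are those of GENCODE M21 (GRCm38).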

Additional observations from a re-analysis of the deposited data

Results flagged for a closer look

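In each tissue of 5 libraries, the gap between the highest or lowest value and its neighbour was compared with the whole range (Dixon's 95% value) for the genes named, the list sums and the number of genes detected. Of 490 such groups, 27 held a library that stood apart, where chance gives about 5%, so the number by itself is near what chance gives. AF library 9 held 11 of them and no other library more than 3. It was high for Krt18 at 109.5 scaled FPKM, Acta2 at 382 and Tagln at 214, which were all higher in NP, and low for Bmp2 at 3.38, C1qa at 53.3, Igf2 at 5.34, Igfbp5 at 112, Tgfbi at 74.0, Thbs4 at 26.7, the elastic fibre sum at 272 and the FGF and IGF sum at 730.1, which were all lower in NP.

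AF library 8 stood apart for Col1a1 at 1964, Col10a1 at 135 and Ibsp at 349. AF library 12 stood apart for Trac at 52.9 and, on the low side, for Mki67 at 44.9. AF library 10 was apart for Cdkn1c at 26.9 and AF library 13 for Ugdh at 62.0.

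Within NP, library 1 was low for Lox at 1.89, Igfbp5 at 3.18 and Scd1 at 90.2. NP library 3 was high for Cs at 41.9, Pfkm at 48.5 and Eln at 0.981, and it held the highest muscle sum of its tissue. NP library 6 was high for Serpina1b at 16.2, Hhip at 0.227 and the number of genes detected at 14185.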

How the results depend on the processing

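Of 198 genes named, 178 were called, and 0 of these changed sign under the 21 settings run, while 7 lost the threshold under at least 1 of them and 13 uncalled genes passed under at least 1. Among the 13, Cdkn2a and Gapdh passed as higher in NP under quantile normalization (limma adjusted p = 0.00423 and 0.0266). Fmod passed as higher under that setting and under upper quartile scaling (limma adjusted p = 0.0485 and 0.0436). Hif1a passed as higher under upper quartile scaling (limma adjusted p = 0.0467). Cox4i1 passed as lower with all 4 groups in the fit or without AF library 8 (limma adjusted p = 0.0357 and 0.0494). Sign changes were seen in 4 uncalled genes: Col6a1 (0.03 with upper quartile scaling, -0.22 to 0.13 without each library, positive without AF library 8), Fn1 (-0.55 to 0.13, positive without AF library 8), Fos (-0.42 to 0.60: -0.42 without NP library 3, -0.08 without NP library 5, -0.10 without NP library 6 and -0.25 without AF library 9) and Il6 (0.02 with quantile normalization). Besides Shh, Stc2 and Scx, the calls of Axin2, Car12 and Ifit1 were lost under quantile normalization, and that of Ddx3y without a scaling factor or without NP library 2 or 3 or AF library 8 or 13. The count of genes higher in NP was 6472 with quantile normalization and 3126 to 3536 without each library in turn. The count lower was 2953 among 11578 genes that reached 1 FPKM in all 10 vehicle libraries, and 5160 to 5602 without each library. At least 4-fold higher in NP were 237 genes with quantile normalization, 333 with a pseudocount of 0.1 and 80 to 200 without each library. At least 4-fold lower were 2672 with a pseudocount of 0.1, 385 where 1 FPKM had to be reached in all 10 libraries, a filter that removes genes near 0 in NP, and 1365 to 1563 without each library. The difference in genes detected was -1512, between -1641 and -1444 without each library. Of 46 list medians, 7 changed sign under some setting: 4 of these (Wnt, nerve and vessel guidance, integrins, pericyte and smooth muscle) only where 1 FPKM was required in all 10 libraries. The cause of the other changes was not tested. The number in the column names that NP and AF libraries share is not explained in the labels. Same-numbered libraries correlated in their deviations at -0.18 to 0.29, and 4 of 10 libraries correlated best with their own number; with that number as a replicate block, 3377 genes were higher and 5406 lower, 141 and 1455 by at least 4-fold, and Hapln1 passed (log2 difference 0.56, limma adjusted p = 0.00515). Depth limits low genes most: values under 1 FPKM rest on few reads.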

Other observations

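After Dsp was named by the rule, 6 further genes of the desmosome, the junction that anchors keratin filaments, were read. They were chosen after their values were seen, so no pattern of the junction is read from them. The desmosomal cadherins Dsg2, Dsc3 and Dsc2 averaged 34.8 ± 4.49, 31.5 ± 6.08 and 14.6 ± 2.09 scaled FPKM in NP against 6.46 ± 4.26, 5.70 ± 4.19 and 2.86 ± 2.00 in AF (SD, n = 5 each), with log2 differences of 2.47, 2.53 and 2.16. The plaque protein Pkp2 and the membrane protein Perp differed by 2.30 and 2.34. Plakoglobin (Jup), which desmosomes share with other junctions, ran the other way at 13.5 ± 2.31 in NP and at 31.1 ± 7.39 in AF (SD, n = 5 each), a log2 difference of -1.13 (limma adjusted p = 2.62e-04).

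Imprinted genes, which are read from a single parental copy, differed in both directions; these too were chosen after their values were seen. Peg3, Zim1 and Usp29 lie side by side on chromosome 7 and were all higher in NP, with Usp29 at 45.8 ± 3.39 against 8.28 ± 4.71 and Zim1 at 129 ± 25.8 against 18.8 ± 10.0 (SD, n = 5 each). Plagl1, a growth-restraining zinc finger gene, was at 88.5, 85.4, 83.9, 64.5 and 77.8 in NP and 18.8, 18.7, 13.9, 18.5 and 16.4 in AF (log2 difference 2.15; limma adjusted p = 3.98e-06), and Cdkn1c and Grb10 were higher by 1.22 and 1.10. The neighbours H19 and Igf2 were lower in NP, with H19 at 1.02 ± 1.26 against 25.4 ± 17.6 and Igf2 at 0.365 ± 0.109 against 17.0 ± 7.22 (SD, n = 5 each). The neighbours Meg3 and Rian on chromosome 12 were lower by -2.32 and -2.88.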
